A study of Homo sapiens with 7 samples.

Results

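The human microRNA (miRNA) genes and the genes that contain them were examined in lists of peaks from chromatin immunoprecipitation with sequencing (ChIP-seq). Members were all genes that RefSeq (GRCh38.p14) gives the type miRNA on chromosomes 1 to 22 and X, 1911 of 59098 genes of every type. Of these, 1203 lay wholly within a protein-coding gene, 283 lay within a gene for a long noncoding RNA (lncRNA) and in no protein-coding gene, and 425 lay in neither. The gene that contains a miRNA gene is called its host, and the 1203 genes had 1022 protein-coding hosts. The miRNA genes were short, with a median length of 80 bp and a range of 41 to 180 bp.

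The antibody 6D7 recognises RNA polymerase II (Pol II) whose repeated C-terminal domain (CTD) is phosphorylated on threonine 4 (pThr4), and the design asked where pThr4 is hidden from the antibody by phosphorylation of the serine 5 next to it. Nuclear lysate of HEK293, a human embryonic kidney cell line, was treated in vitro with active SCP1 (WT), a CTD phosphatase, or with its catalytically inactive variant (D96A) before immunoprecipitation. Each group held 3 biological replicates, each with a peak list of its own. The lists hold no read counts, so sequencing depth is unknown, and the IgG control was not analysed here.

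A miRNA gene is transcribed by Pol II as part of a longer primary transcript, often the transcript of its host. The nuclease Drosha and its partner DGCR8 cut a hairpin out of that transcript in the nucleus, and Dicer cuts the hairpin to the mature miRNA in the cytoplasm. The bases near the 5′ end of the mature miRNA, called the seed, choose its target messenger RNAs. A mirtron is a miRNA gene that fills a short intron and is released by splicing in place of Drosha.

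The mature miRNAs of 6 genes that were overlapped by a peak in every active library and in no inactive library are shown first, because their families are well studied and their positions recur below. Capitals mark the seed (bases 2 to 8), and the sequences are those of RefSeq for GRCh38.p14. They come from the 3 genes inside MCM7 on chromosome 7 (MIR106B at chr7:100093993-100094074, MIR93 at chr7:100093768-100093847 and MIR25 at chr7:100093560-100093643), from MIR33B inside SREBF1 (chr17:17813836-17813931), and from MIRLET7A3 (chr22:46112749-46112822) and MIRLET7B (chr22:46113686-46113768).
hsa-miR-106b-5p: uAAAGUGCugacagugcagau
hsa-miR-93-5p: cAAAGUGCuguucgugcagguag
hsa-miR-25-3p: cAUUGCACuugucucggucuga
hsa-miR-33b-5p: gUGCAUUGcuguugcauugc
hsa-let-7a-5p: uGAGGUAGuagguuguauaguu
hsa-let-7b-5p: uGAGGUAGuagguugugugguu

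The other genes named for this pattern were MIR4745, MIR6797, MIR6832, MIR3940, MIR6777 and MIR4763. One mature arm of each of the first 4 is shown, because they ranked first by the lowest fold enrichment over the active libraries.
hsa-miR-4745-5p: uGAGUGGGgcucccgggacggcg
hsa-miR-6797-5p: aGGAGGGAaggggcugagaacagga
hsa-miR-6832-5p: aGUAGAGAggaaaaguuaggguc
hsa-miR-3940-3p: cAGCCCGGaucccagcccacuu
Genes with a peak in all 6 libraries gave the following mature sequences, shown for contrast with the set above.
hsa-miR-4321: uUAGCGGUggaccgcccugcg
hsa-miR-3187-3p: uUGGCCAUggggcugcgcgg
hsa-miR-4746-5p: cCGGUCCCaggagaaccugcaga
hsa-miR-1539: uCCUGCGCgucccagaugccc
hsa-miR-5695: aCUCCAAGaagaaucuagacag

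The lists differed in length, which bears on every count below. On these chromosomes the active libraries held 12625, 6680 and 36892 peaks (replicates 1, 2 and 3), against 2466, 1163 and 2699 for the inactive ones. Active replicate 3 stood apart with the longest list. Peak names of replicates 1 and 2 share a leading number that differs from that of replicate 3, with no meaning stated, so values for replicates 1 and 2 alone are given beside the pooled ones. A gene without a listed peak is a gene below the cutoff of the caller, not one shown to lack pThr4.

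miRNA genes were overlapped by a pThr4 peak more often in every active than in any inactive SCP1 library. Of 1911 genes, 100, 67 and 190 were overlapped with active SCP1, against 18, 8 and 28 with inactive SCP1. This is 5.23%, 3.51% and 9.94% against 0.942%, 0.419% and 1.47%. The means were 6.23% ± 3.33 and 0.942% ± 0.523 (SD, n = 3 per group), a difference of 5.29 percentage points. The two-sided exact permutation test gave p = 0.1, the smallest value that 3 against 3 libraries allow, so no comparison of the groups here can pass 0.05. It was 3.69 percentage points within replicates 1 and 2. With every list cut to its 1163 peaks of highest −log10 p-value, the difference was 1.69 percentage points (2.35% against 0.663%), and the part that list length plays beyond this was not tested.

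Most of the overlapped miRNA genes lay inside protein-coding hosts. Of 1203 such genes, 92, 61 and 152 were overlapped with active SCP1 (7.65%, 5.07% and 12.6%), against 12, 5 and 25 with inactive SCP1 (0.998%, 0.416% and 2.08%). The groups did not overlap, and the means of 8.45% ± 3.85 and 1.16% ± 0.844 (SD, n = 3 per group) differed by 7.29 percentage points, or by 5.65 in replicates 1 and 2 (exact permutation p = 0.1 over all 6 libraries). With lists of equal length the difference was 2.69 percentage points.

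In lncRNA hosts the groups overlapped. Of 283 genes, 3, 2 and 18 had a peak with active SCP1, against 3, 1 and 1 with inactive SCP1. The difference of 2.12 percentage points (exact permutation p = 0.3) rested on active replicate 3, without which it was 0.294. Of 425 genes in neither class, 5, 4 and 20 had a peak with active SCP1, against 3, 2 and 2 with inactive SCP1. That difference was 1.73 percentage points (exact permutation p = 0.1) and 0.510 without active replicate 3.

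**Figure D1:**
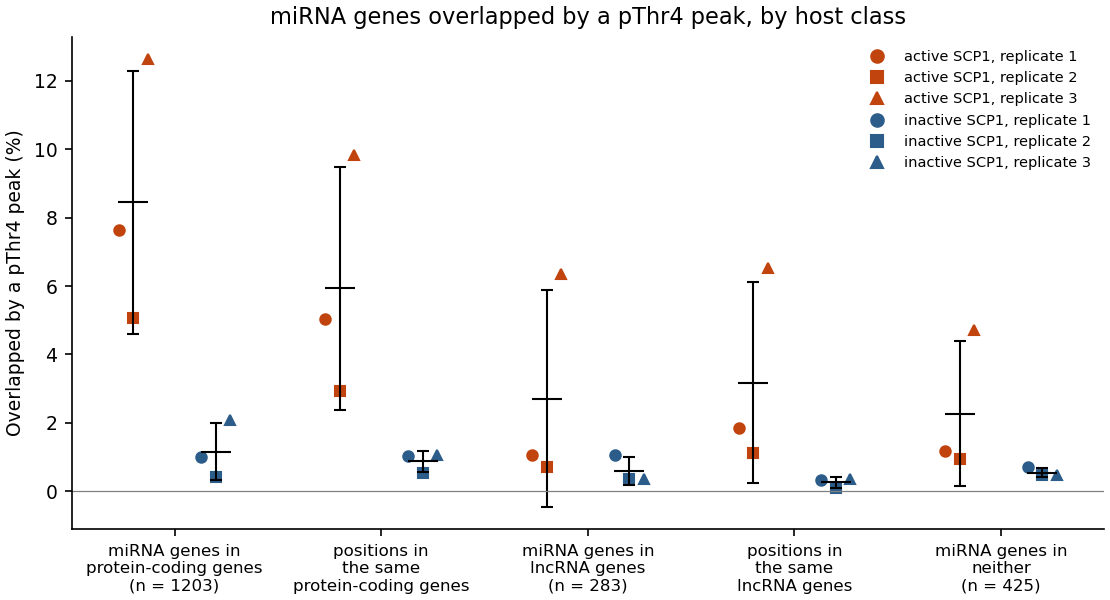
Share of miRNA genes overlapped by a pThr4 peak (%), for each library (symbols) and group (mean ± SD, n = 3), by host class, beside the share of all positions in the same hosts. In protein-coding hosts the active libraries lie between 5.07% and 12.6% and the inactive libraries between 0.416% and 2.08%.

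A miRNA gene in a host was then compared with every other place of the same length in the same host, so that the length and peak content of the host were held fixed. All placements were counted, and none were drawn at random. In protein-coding hosts 5.04%, 2.92% and 9.83% of positions were overlapped with active SCP1, against 1.03%, 0.524% and 1.07% with inactive SCP1. The miRNA genes exceeded these shares by 2.61, 2.15 and 2.80 percentage points in the active libraries, which is 1.52, 1.74 and 1.28 times the share of positions. The inactive libraries gave differences of −0.0363, −0.108 and 1.01 percentage points. Over the 6 libraries the mean difference was 1.40 ± 1.30 percentage points and was positive in 4 of 6, with p = 0.125 in the two-sided exact sign-flip test, and with lists of equal length it was 0.748 percentage points. The 3 active values lay above the 3 inactive values (difference 2.23 percentage points, exact permutation p = 0.1), whereas the ratios of miRNA genes to positions overlapped between groups (exact permutation p = 0.5). In lncRNA hosts the differences were −0.799, −0.416 and −0.174 percentage points where SCP1 was active and 0.729, 0.270 and −0.0134 where it was inactive. Here the active values lay below the inactive ones (difference −0.791 percentage points, exact permutation p = 0.1), and the mean over all 6 libraries was −0.0672 ± 0.532 (exact sign-flip p = 0.781).

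Most overlapped genes lay near the end of their host. The transcription end site (TES) is the last base of the host along its strand, known for 1196 of the 1203 genes in protein-coding hosts. The median distance from an overlapped miRNA gene to the TES was 3.21, 3.26 and 4.69 kb in the active libraries, against 2.03, 2.70 and 2.85 kb in the inactive ones. For genes without a peak it lay between 23.4 and 29.6 kb. Overlapped genes also had shorter hosts, with medians from 11.3 to 24.5 kb over the 6 libraries against 65.5 to 79.4 kb for hosts of genes without a peak. They were nearer the start of the host too, at medians of 8.04 to 14.8 kb against 28.5 to 32.0 kb. Relative to host length, overlapped genes lay at a median of 76.9% to 84.5% of the way from start to end. For genes without a peak it was 53.3% to 57.0%.

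Close to the TES, however, the miRNA genes did not exceed their surroundings. Within 1000 bp of the TES lay 53 genes, of which 32.1%, 20.8% and 37.7% were overlapped with active SCP1, beside 31.8%, 24.5% and 42.0% of positions in the same zone. With inactive SCP1 the shares were 3.77%, 0% and 7.55%, beside 5.44%, 1.32% and 9.87% of positions. The mean difference was −2.18 ± 1.66 percentage points (positive in 1 of 6 libraries, exact sign-flip p = 0.0625).

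In the interior, over 1000 bp from both ends of the host, the miRNA genes lay above positions. There 6.67%, 4.54% and 11.3% of 1079 genes were overlapped with active SCP1, beside 4.24%, 2.36% and 8.63% of interior positions. The inactive libraries gave 0.834%, 0.463% and 1.85%, beside 0.706%, 0.400% and 0.816%. The mean difference was 1.42 ± 1.17 percentage points and was positive in all 6 libraries (exact sign-flip p = 0.03125, the smallest that 6 libraries allow). In inactive replicates 1 and 2 the difference was only 0.128 and 0.0638 percentage points, with 9 and 5 overlapped genes. When positions were taken from the same distance band to the TES, the mean difference over all zones was 0.765 ± 0.713 percentage points (4 of 6 positive, exact sign-flip p = 0.125).

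The bands of distance to the TES are given as a description. Between 1 and 5 kb, miRNA genes differed from positions by 1.76, 1.84 and −0.0579 percentage points with active SCP1, against −0.799, −0.0891 and 0.959 with inactive SCP1. Between 5 and 20 kb the miRNA genes lay above positions in all 6 libraries, though with 2 and 1 overlapped genes in inactive replicates 1 and 2. In that band 8.62%, 5.54% and 16.3% of 325 genes were overlapped with active SCP1, beside 4.53%, 2.10% and 12.1% of positions, and 0.615%, 0.308% and 2.46% with inactive SCP1, beside 0.397%, 0.240% and 0.524%. Farther than 20 kb from the TES, where 632 genes lay, 0.791%, 0.475% and 3.32% were overlapped with active SCP1, beside 0.688%, 0.225% and 2.40% of positions.

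**Figure D2:**
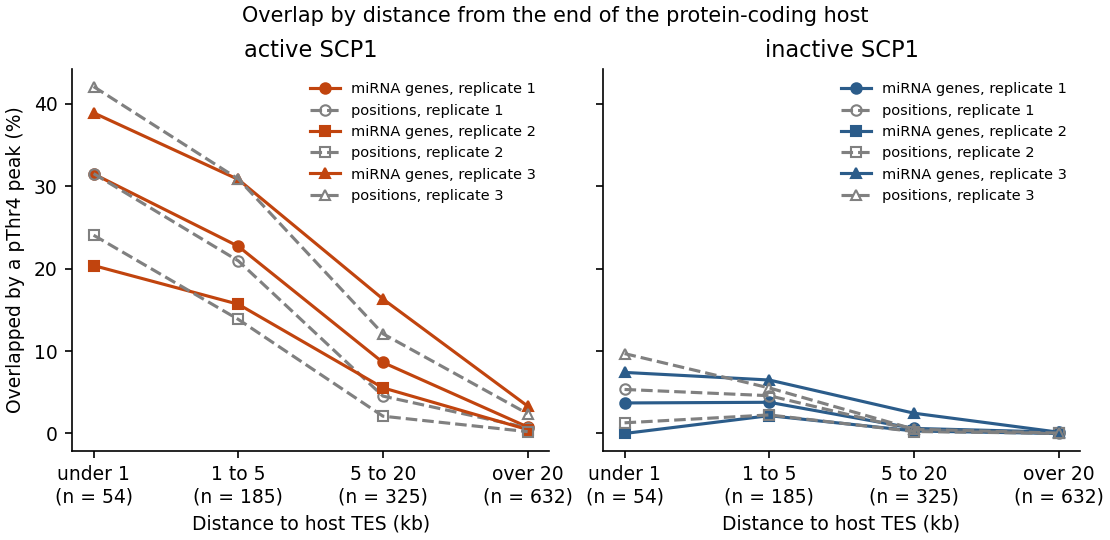
Share of miRNA genes in protein-coding hosts overlapped by a pThr4 peak (%), by distance to the host TES (kb), for each library (filled symbols) beside positions in the same distance band (open symbols, dashed). In the active libraries the share of genes goes from 20.4% to 38.9% within 1 kb of the TES down to 0.475% to 3.32% beyond 20 kb.

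At the start of the host the counts were small. Of 64 genes within 1000 bp of the transcription start site (TSS) of the host, 3, 1 and 10 were overlapped with active SCP1, against 1, 0 and 1 with inactive SCP1. The difference from positions in the same zone was 1.31 percentage points (5 of 6 positive, exact sign-flip p = 0.0625).

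The hosts themselves more often had a peak at their end than other protein-coding genes did. Within 1000 bp of the TES, 30.2%, 22.4% and 39.7% of 1016 hosts with a known strand had a peak in the active libraries, beside 19.4%, 14.1% and 29.3% of 18614 other genes. In the inactive libraries it was 12.6%, 7.38% and 13.7% of hosts beside 7.38%, 3.78% and 7.82%. The mean difference was 7.36 ± 2.92 percentage points, positive in all 6 libraries (exact sign-flip p = 0.03125). The test measures agreement over lists of the same genes, not the spread between genes. At the TSS the mean difference was 0.433 ± 0.594 percentage points (5 of 6 positive, exact sign-flip p = 0.156). Hosts were longer than protein-coding genes in general, with a median of 64.0 kb against 24.2 kb, and the part of gene length in the TES difference was not tested.

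At the end of a host, peaks reached farther back into the gene with active than with inactive SCP1. A peak within 1000 bp of the TES was present in all 6 libraries at 66 hosts, 6.50% of the 1016 with a known strand. From the TES these peaks reached a median of 2.76, 1.70 and 3.89 kb into the gene with active SCP1, against 0.197, −0.0670 and 0.436 kb with inactive SCP1, where a negative value means that the peak began past the TES. The means were 2.78 ± 1.10 and 0.188 ± 0.251 kb (SD, n = 3 per group), a difference of 2.59 kb, or 2.16 kb in replicates 1 and 2 (exact permutation p = 0.1). Past the TES the same peaks reached 2.10, 2.05 and 3.46 kb with active SCP1, against 1.14, 1.13 and 1.52 kb with inactive SCP1.

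Other protein-coding genes with a TES peak in all 6 libraries numbered 597, or 3.21% of 18614. Their peaks reached 1.83, 1.20 and 2.52 kb into the gene with active SCP1, against 0.482, 0.0150 and 0.478 kb with inactive SCP1. Hosts and other genes differed by 0.399 ± 0.653 kb over the 6 libraries (exact sign-flip p = 0.25), so the reach was not shown to be particular to hosts. The reach of a called peak depends on the cutoff of its list, and the part of list length in it was not tested.

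**Figure D3:**
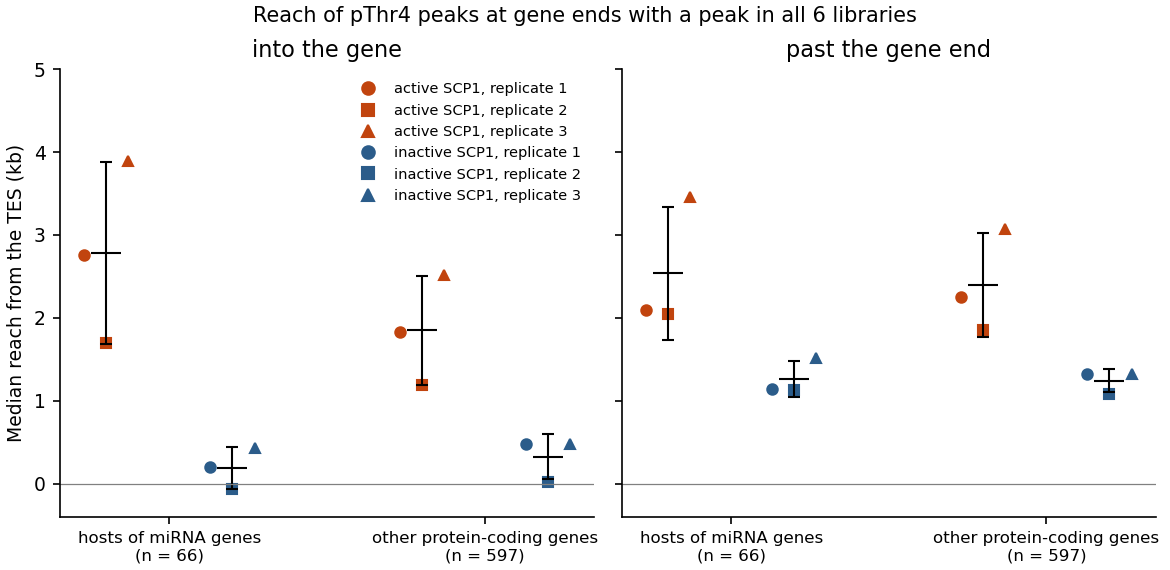
Median distance (kb) that pThr4 peaks reached from the TES into the gene (left) and past it (right), at genes with a TES peak in all 6 libraries, for each library (symbols) with the mean ± SD (n = 3). At the 66 hosts the active libraries reached 1.70 to 3.89 kb into the gene and the inactive libraries −0.0670 to 0.436 kb.

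The peaks over miRNA genes were wide. Their median width was 3467, 2776 and 2795 bp in the active libraries, against 1760, 1920.5 and 1825 bp in the inactive ones, beside 783 to 828 bp for the other peaks of the lists. A wide peak covers more places, so the width of the peak at a typical covered base is the closer comparison, and it was 2227, 2132 and 1880 bp with active SCP1, against 1810, 1677 and 1765 bp with inactive SCP1. Of peaks over miRNA genes in protein-coding hosts, 61.0%, 56.6% and 51.4% came within 1000 bp of a TES of a protein-coding gene with active SCP1, beside 25.0%, 34.7% and 14.4% of other peaks in such genes. With inactive SCP1 it was 75% of 12, 100% of 5 and 65.2% of 23 peaks, beside 52.4%, 58.6% and 49.9%. The peaks over these miRNA genes had median widths of 3552.5, 2776 and 3553 bp with active SCP1, beside 840, 852 and 853 bp. With inactive SCP1 the widths were 1294.5, 2467 and 1925 bp, beside 872, 847.5 and 847 bp. A wider peak reaches a TES more readily, and the part of width in these shares was not tested.

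The fold enrichment of a peak is the deposited ratio of the library to its background. Peaks over miRNA genes had median fold enrichments of 4.10, 3.84 and 3.55 with active SCP1, beside 3.39, 3.53 and 3.11 for the other peaks of the same lists. With inactive SCP1 they had 4.21, 4.54 and 4.25, beside 3.84, 3.88 and 3.84. The log2 ratio of the medians was 0.18 ± 0.060 and was positive in all 6 libraries (exact sign-flip p = 0.03125), and with lists of equal length it was 0.08. It did not separate the groups, with 0.20 and 0.17 on the log2 scale (exact permutation p = 0.7). At a typical covered base the fold enrichment was 3.59, 3.73 and 3.26 with active SCP1, against 4.05, 4.05 and 4.03 with inactive SCP1, which lies between the values above in each library. For the −log10 p-value the log2 ratio was 0.40 ± 0.11, again positive in all 6 libraries (exact sign-flip p = 0.03125). At a typical covered base the −log10 p-value was 5.08, 5.39 and 4.23 with active SCP1, against 6.01, 6.51 and 5.88 with inactive SCP1. In each library this lies between the median of the other peaks and that of the peaks over miRNA genes. Both sign-flip tests took no account of peak width, so they do not show an enrichment particular to miRNA genes.

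Single genes were sorted by the libraries in which they had a peak. A peak in at least 1 library was found at 202 miRNA genes, which is 10.6% of them, beside 27.1% of all genes, 56.6% of protein-coding genes and 18.4% of lncRNA genes, which are longer. Among other short genes, 5.43% of those for small nucleolar RNAs (snoRNA) and 7.22% of those for transfer RNAs (tRNA) had one. Active replicate 3 was the only library with a peak at 93 of the 202. A peak in all 3 active libraries was found at 59 genes, of which 55 lay in protein-coding hosts.

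Among these, 30 genes had a peak in all 3 active libraries and in no inactive library, 1.57% of miRNA genes beside 2.92% of all genes and 7.17% of protein-coding genes. The share was 1.08% of lncRNA genes, 0.753% of snoRNA genes and 0.451% of tRNA genes. All 30 lay in protein-coding hosts, 25 hosts in all. Of the 30, 27 were on the strand of the host, beside 973 of all 1203 miRNA genes in protein-coding hosts. Of positions in the protein-coding hosts, 1.27% had this pattern, which corresponds to 15.2 genes. No gene in a lncRNA host had the pattern, beside 0.447% of positions. The count was 13 with lists of equal length, 19 with a common cutoff of 6 on the −log10 p-value, and 61 without active replicate 2, the shortest active list. None lay within 1000 bp of the TSS, 6 lay within 1000 bp of the TES and 24 in the interior.

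No library with inactive SCP1 covered these genes, but most of their hosts carried an inactive peak at the end of the gene. Of the 25 hosts, 12 had a peak within 1000 bp of the TES in all 3 inactive libraries, 8 in 1 or 2 of them and 5 in none. Of all 1016 hosts with a known strand, 12.6%, 7.38% and 13.7% had such a peak in inactive replicates 1, 2 and 3. The 25 hosts were picked through their active peaks. Other hosts with active peaks were not counted, so these counts are not shown to be particular to the 30 genes. The nearest inactive peak lay within 2 kb of 16 of the 30 genes. With active SCP1, the peak over the miRNA gene reached the TES in all 3 libraries at 15 of the 30 genes, in 1 or 2 libraries at 7 and in none at 8.

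**Figure D4:**
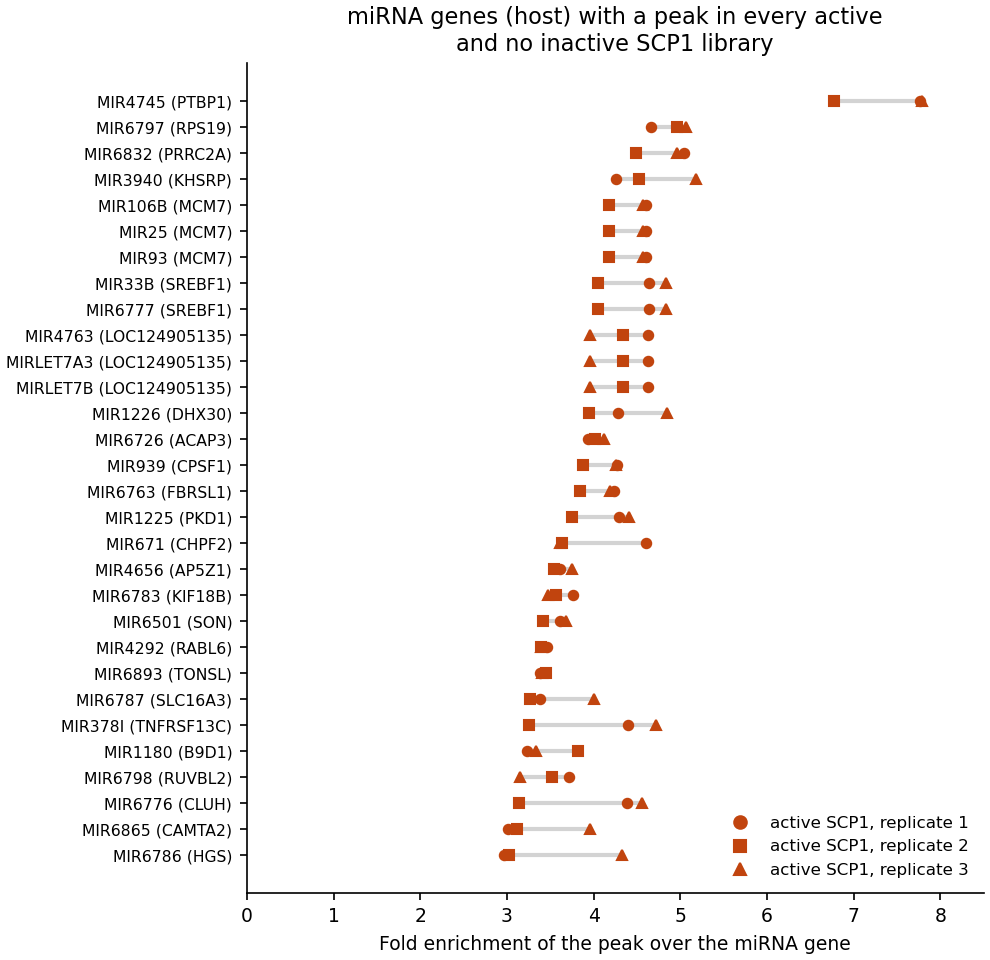
Fold enrichment of the pThr4 peak over each of the 30 miRNA genes (host in parentheses) that had a peak in every active and no inactive SCP1 library, 1 symbol per active library. Genes of 1 host that share a peak have the same values, and the lowest value per gene lies between 2.97 and 6.78.

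MIR4745 had the highest fold enrichment of the 30. It lies in PTBP1 (chr19:804940-805001), the gene of the splicing repressor polypyrimidine tract binding protein, 7.34 kb before the TES. Its peaks had fold enrichments of 7.76, 6.78 and 7.78 and widths of 13528, 12390 and 12671 bp. They ran from 9.11, 9.01 and 9.14 kb before the TES to 4.42, 3.38 and 3.53 kb past it. With inactive SCP1 the peaks at this TES began 1.13, 1.36 and 0.571 kb before it and ended 2.73, 2.63 and 2.76 kb past it, and inactive replicate 1 had another peak inside PTBP1, from −3.81 to −3.42 kb, with a fold enrichment of 4.63. The nearest inactive peak lay 3.50, 5.95 and 6.74 kb from MIR4745. The PTBP1 end had a peak in all 6 libraries, and the peak that reached MIR4745 was present in the 3 active ones.

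MIR3187 lies on the other side of the same peak, inside the tail to tail neighbour PLPPR3 (chr19:813584-813653). It had a peak in all 6 libraries, with the fold enrichments of MIR4745 where SCP1 was active and 6.31, 5.66 and 6.72 where it was inactive. The inactive peaks there were 3855, 3994 and 3332 bp wide, and MIR3187 lies on the strand opposite to PLPPR3.

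MIR6797 lies in RPS19 (chr19:41869627-41869698), the gene of a protein of the small ribosomal subunit. Its peaks had fold enrichments of 4.66, 4.97 and 5.06. They began 8.23, 4.44 and 7.84 kb before the TES with active SCP1, where the inactive peaks at the same TES began 1.24, 1.16 and 1.24 kb before it. MIR3940 lies in KHSRP (chr19:6416410-6416511), which encodes an RNA-binding protein known to take part in miRNA maturation and mRNA decay. Its peaks had fold enrichments of 4.26, 4.53 and 5.18 and began 5.63, 5.64 and 5.26 kb before the TES. With inactive SCP1 the peaks of KHSRP lay wholly past the TES, from 0.0920, 0.101 and 0.0580 kb to 1.13, 1.09 and 0.934 kb.

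MIR6832 in PRRC2A (chr6:31633787-31633858) differed from these. Its peaks, with fold enrichments of 5.04, 4.49 and 4.97, were separate from the peak at the TES and ended at −3.83, −3.87 and −3.86 kb from it, where a negative value lies inside the gene. PRRC2A also had an inactive peak inside the gene in each library, ending at −4.80, −7.12 and −4.79 kb. Those peaks left MIR6832 0.816 and 0.805 kb away in replicates 1 and 3 and 3.14 kb away in replicate 2.

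The 3 genes in MCM7 were covered by 1 peak in each active library. MCM7 encodes a subunit of the replicative helicase, and its miRNA genes form the MIR106B cluster, a paralog of the MIR17HG cluster with a seed in common (AAAGUGC) and a role in cell cycle control. The peaks had fold enrichments of 4.604, 4.18 and 4.57 and widths of 4467, 4196 and 7866 bp, and they reached 2.93, 2.94 and 5.56 kb into MCM7. MIR25, MIR93 and MIR106B lie 0.873, 1.08 and 1.30 kb before the TES. The inactive peaks of MCM7 began 0.257, 0.351 and 0.121 kb past the TES and ended 1.13, 1.31 and 1.26 kb past it, so none reached the cluster.

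SREBF1 encodes a transcription factor of lipid synthesis, and the miRNA it holds, miR-33b, is known to repress cholesterol export genes. MIR33B and its neighbour MIR6777 were covered by 1 peak in each active library, with fold enrichments of 4.63, 4.05 and 4.83 and a reach of 6.85, 5.51 and 9.06 kb into the gene. With inactive SCP1, the nearest peaks of replicates 1 and 3 lay 1.21 and 1.08 kb from MIR33B, and that of replicate 2 lay 295 kb away. The paralog MIR33A in SREBF2, with the same seed (UGCAUUG), had a peak in active replicates 2 and 3, at fold enrichments of 3.37 and 3.84, and lay 0.270 kb from a peak in active replicate 1.

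The let-7 genes are a large family of miRNAs known for their part in differentiation, with the seed GAGGUAG. MIRLET7A3, MIR4763 and MIRLET7B lie 1.14, 0.317 and 0.201 kb before the end of LOC124905135, which RefSeq lists as protein-coding. They were covered by 1 peak in each active library, with fold enrichments of 4.62, 4.34 and 3.96 and widths of 4827, 3835 and 33958 bp. The inactive peaks at the end of this gene began 0.363, 0.477 and 0.167 kb past it, and inactive replicates 1 and 3 each had another peak farther inside, ending at −20.8 and −4.93 kb. These left MIRLET7A3 1.47, 1.58 and 1.27 kb and MIRLET7B 0.523, 0.637 and 0.327 kb from the nearest peak.

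**Figure D5:**
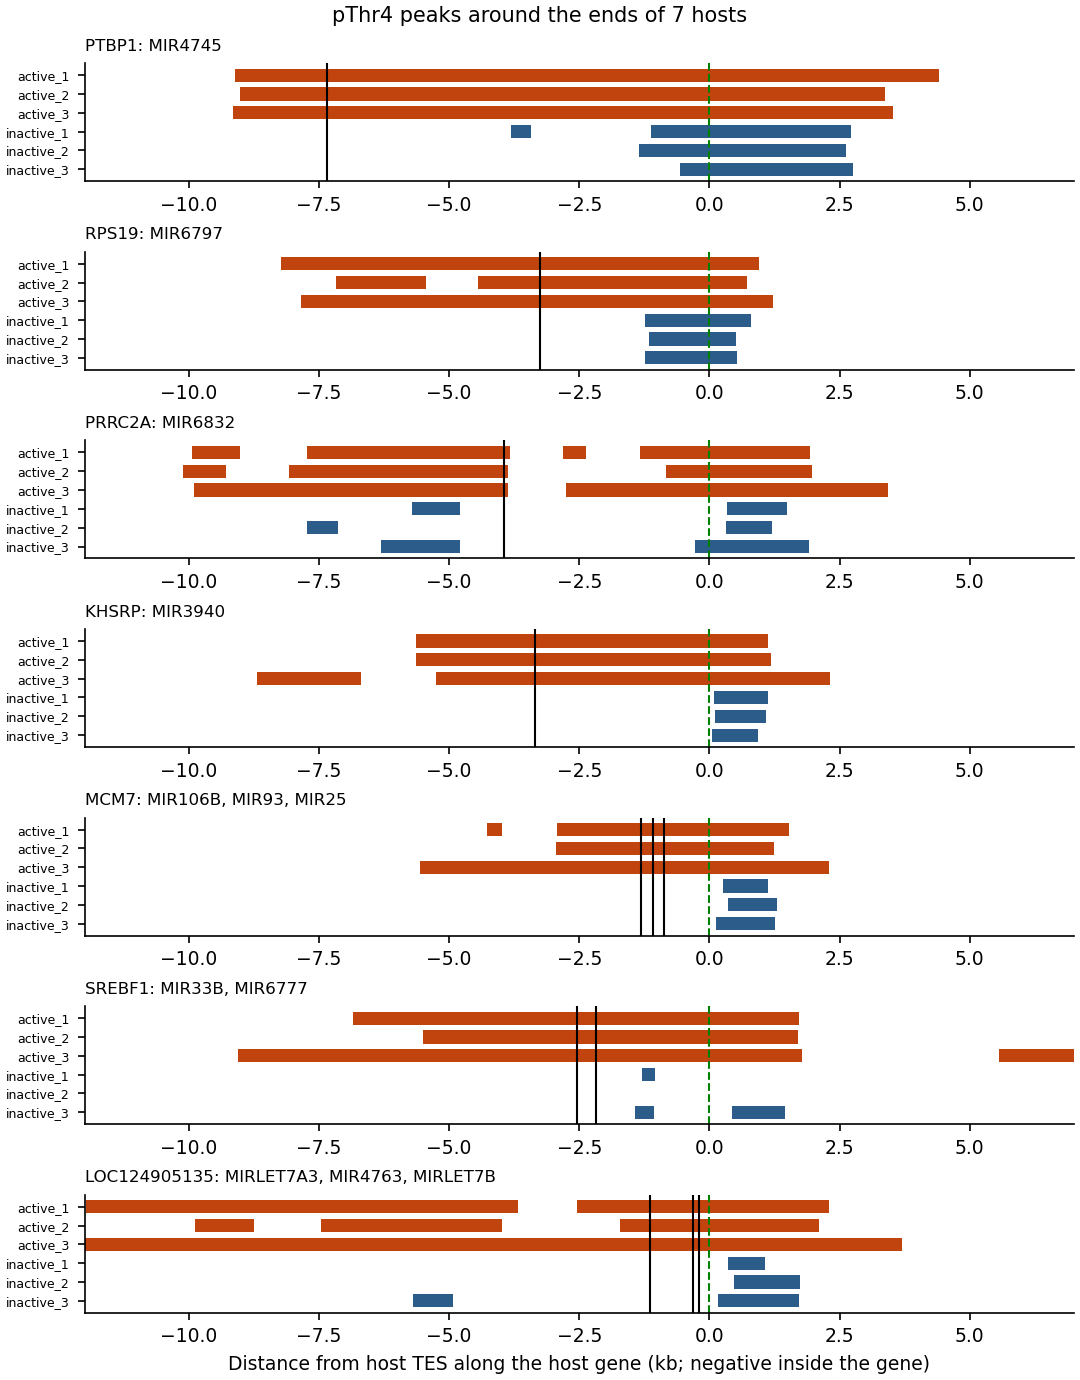
Peaks (bars) of each library around the ends of 7 hosts, by distance from the host TES along the gene (kb, negative inside the gene), with miRNA genes as vertical black lines and the TES as a dashed line; bars are cut at 12 kb before and 7 kb past the TES. In PTBP1, RPS19, KHSRP, MCM7 and LOC124905135 the inactive peaks at the TES begin at most 1.36 kb before it. The active peaks there begin at least 1.72 kb before it. Hosts were chosen because active and no inactive peaks covered their miRNA genes, so this contrast follows in part from the choice. In PRRC2A the active peaks at the TES begin 1.33, 0.839 and 2.76 kb before it. SREBF1 had no peak within 1000 bp of the TES in inactive replicates 1 and 2.

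Some genes of the 30 outside the 10 named by rule are given here, chosen after their values were seen. MIR939 lies 0.958 kb before the TES of CPSF1, which encodes a subunit of the cleavage and polyadenylation complex, and had fold enrichments of 4.28, 3.88 and 4.26. MIR6501 in SON (chr21:33550662-33550728) was the farthest from its host TES, at 26.8 kb, with fold enrichments of 3.61, 3.42 and 3.68 in peaks of 3386, 3128 and 3215 bp. MIR4656 in AP5Z1 (chr7:4788565-4788639) was the 1 gene known to lie on the strand opposite to its host, and the nearest inactive peak was at least 256 kb away.

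A peak in all 6 libraries was found at 8 miRNA genes, 0.419% beside 1.19% of all genes, 2.93% of protein-coding, 0.49% of lncRNA, 0% of snoRNA and 0.677% of tRNA genes, and at 13 without inactive replicate 2, the shortest list. In protein-coding hosts the share was 0.416%, beside 0.408% of positions. The 8 genes were MIR4321 in AMH, MIR3187 in PLPPR3, MIR6848 in DGAT1, MIR612 in NEAT1, MIR5695 and MIR150 in neither class, MIR1539 in RPL17-C18orf32 and MIR4746 in CHAF1A.

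MIR4321 (chr19:2250639-2250718) had the highest lowest value over the 6 libraries among the 8, though MIR3187 was higher in active replicates 1 and 3. AMH, the gene of anti-Müllerian hormone, is 2.75 kb long and was covered whole by a single peak in each active library and to 97.2%, 55.0% and 70.1% in the inactive libraries. The fold enrichments over MIR4321 were 6.99, 7.10 and 7.73 with active SCP1 and 6.84, 7.17 and 5.93 in inactive replicates 1, 3 and 2, and the peaks were 7646, 5115 and 9398 bp wide with active SCP1. MIR4746 in CHAF1A, a gene of a chromatin assembly factor, had fold enrichments of 5.55, 4.53 and 5.54 with active SCP1 and from 3.95 to 4.33 with inactive SCP1.

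NEAT1, the architectural lncRNA of paraspeckles, was the 1 lncRNA host with a peak at its miRNA gene in all 3 active libraries. MIR612 lies 1.03 kb before its TES (chr11:65444458-65444557). The peaks had fold enrichments of 5.36, 5.14 and 5.96 with active SCP1 and from 4.54 to 5.31 with inactive SCP1. MIR1539 (chr18:49487373-49487422) lies on the strand opposite to RPL17-C18orf32, in peaks of 758, 693 and 875 bp with active SCP1 and 724 to 1267 bp with inactive SCP1, which were the narrowest active peaks of the 8 genes. Its fold enrichments were 5.45, 4.20 and 6.51 with active SCP1 and from 4.33 to 5.95 with inactive SCP1.

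MIR150, which is known from lymphocytes, and MIR5695 have no host. MIR150 lies at chr19:49500785-49500868, and MIR5695 (chr19:12920320-12920404) begins 2075 bp past the end of FARSA. The fold enrichments were 4.68, 3.46 and 5.13 over MIR150 and 4.80, 4.15 and 5.08 over MIR5695 with active SCP1. They ranged from 3.88 to 4.39 over MIR150 and from 4.54 to 6.25 over MIR5695 with inactive SCP1.

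Genes in neither class were also sorted by their distance past the end of a gene, with no test. Of the 425, 73 lay within 10 kb past the end of a protein-coding gene, and 5, 4 and 11 of them had a peak with active SCP1, against 3, 2 and 2 with inactive SCP1. Of the other 352, 9 had a peak in active replicate 3 and none in any of the other 5 libraries. The third gene of the class with a peak in all 3 active libraries was MIR3178, which begins 505 bp past the end of AMDHD2 and is named after its values were seen.

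Inactive SCP1 alone gave a peak at 2 miRNA genes, MIR5692A1 and MIR5692C2, which lie together in the lncRNA gene CZ1P-ASNS and had a peak in inactive replicate 1 only, at a fold enrichment of 3.78. No miRNA gene had a peak in all 3 inactive libraries and in under 3 active ones. The 5 genes with a peak in all 3 active and 2 inactive libraries were MIR6727 in INTS11, MIR3175 in CHD2, MIR324 in ACADVL, MIR3655 in IK and MIR4467 in LRWD1, and the inactive library without a peak was replicate 2 at each. These 7 genes are named after their values were seen.

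A panel of 64 miRNA genes of well-studied families and clusters gave 15 with a peak in any library, all of them in active libraries. Of these, 8 had a peak in all 3 active libraries and in no inactive library, beside 1.57% of miRNA genes. All 8 lie in protein-coding hosts, where the share was 2.49%. They were the 3 genes of the MIR106B cluster, MIR33B, MIRLET7A3, MIRLET7B, MIR1225 and MIR1226. The 3 genes in MCM7 share 1 peak in each active library, as do MIRLET7A3 and MIRLET7B, so the 8 are not independent. The panel was chosen with earlier results of these data known.

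Clusters of like sequence differed in their peaks. The MIR17HG cluster on chromosome 13 and the MIR106A cluster on X hold 6 genes each, and none of the 12 had a peak in any library. The 3 genes of the MIR106B cluster had one in every active library. The 12 genes lie in lncRNA hosts, where 7.42% of miRNA genes had a peak in any library. The MIR106B cluster lies in a protein-coding host, where the share was 13.3%. Each cluster is a single locus, so a difference between the clusters was not tested. Of the 8 genes with the seed AAAGUGC, MIR106B and MIR93 had a peak. Inside MIR17HG, MIR17 lay 3.68, 5.54 and 1.40 kb from the nearest active peak. Of 12 let-7 genes, 2 had a peak, and MIRLET7I lay 0.344, 0.346 and 0.0910 kb from one in the active libraries.

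The 6 mirtrons of the panel each had a peak in at least 1 active library and in no inactive one. Of all miRNA genes in protein-coding hosts, 13.3% had a peak in at least 1 library. MIR1225 in PKD1 (chr16:2090195-2090284), the gene of polycystin, had fold enrichments of 4.29, 3.75 and 4.41 in peaks of 12976, 8362 and 17178 bp. MIR1226 in DHX30 (chr3:47849555-47849629), an RNA helicase gene, had 4.29, 3.95 and 4.85 in peaks of 8572, 6369 and 11713 bp. MIR1224, MIR1227 and MIR1229 had a peak in active replicates 1 and 3, and MIR877 in active replicate 3. The lengths from mirtron to host TES ran from 0.601 kb at MIR1226 to 7.15 kb at MIR877. Overlap was more common near the TES in general, and the part of this nearness in the mirtron count was not tested.

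The miR-26 genes lie in the 3 genes of small CTD phosphatases, and MIR26B lies in CTDSP1, the gene of SCP1 itself. MIR26B and MIR26A1 had no peak, and MIR26A2 in CTDSP2 had one in active replicate 3, at a fold enrichment of 2.92. CTDSP1 had a peak at its TES in 5 of 6 libraries, with fold enrichments of 4.81, 4.44 and 4.70 with active SCP1 and 4.55 and 4.36 in inactive replicates 1 and 3. MIR26B lies 3.26 kb before that TES and was 3.15, 3.27 and 0.237 kb from the nearest active peak. MIR10B was the 1 gene of the HOX clusters with a peak, in active replicate 3. The genes of the PANK and DALRD3 hosts, of the miR-15 and miR-16, miR-23a, miR-183 and miR-221 clusters, MIR21, MIR423 and MIR7-1 had none.

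The genes of the miRNA machinery were counted as genes in their own right. Of 25 such genes, 9 had a peak in all 3 active libraries, 2 of them in no inactive library, 2 had a peak in all 6 libraries and 2 had none. Of 19974 protein-coding genes the counts were 3313, 1433, 585 and 8666. RAN, the gene of the GTPase that drives nuclear export of the hairpin, had a peak in 2 inactive libraries (3.82 and 3.81) and in no active library, although all 3 active libraries had one within 1000 bp of its TES. The machinery genes were longer, with a median of 53.7 kb. DGCR8 had the highest fold enrichments, 9.18, 7.58 and 8.90 with active SCP1, against 6.47, 5.51 and 6.17 with inactive SCP1, and its TES had a peak in all 3 active libraries. The helicase gene DDX17 was the other with a peak in all 6 libraries, at 5.56, 4.49 and 4.51 with active SCP1 and from 3.99 to 4.38 with inactive SCP1.

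AGO1 and AGO3 lie end to start, and 1 peak in each active library spanned that junction. AGO1, the gene of an Argonaute protein that carries the mature miRNA, had fold enrichments of 3.91, 3.47 and 4.10 with active SCP1 and no peak with inactive SCP1. AGO3 had the same values with active SCP1, but also 3.61 and 4.10 in inactive replicates 1 and 3. TNRC6A, whose product works with Argonaute in silencing, had 3.76, 3.72 and 3.91 and likewise none with inactive SCP1. DROSHA and DICER1 had a peak in active replicate 3 only, at 2.99 near the TES of DROSHA and at 3.18 near the TSS of DICER1.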

How the data were processed

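pThr4 ChIP-seq peak lists of 3 active and 3 inactive SCP1 libraries were analysed. The submitters' processing notes name FastQC, cutadapt 4.6, Bowtie2 2.5.2 and hg38. The caller's version, control and read filters are not given in the sources used here. Per library, the authors deposited for each peak a fold enrichment (a ratio of library to background), −log10 values of p and of q, and a score (10 times the −log10 of q, not used). The lowest −log10 of q was just above 1 in each list, as a q cutoff of 0.1 leaves. Fold enrichment was compared only within lists.

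RefSeq gene positions (GRCh38.p14) were used, with strand from RefSeq where given and otherwise by name from GENCODE 44. A member was overlapped where at least 1 bp lay in a peak. Where several genes held a member, protein-coding came before lncRNA, then same strand, then the shortest. Of 1911 members 1734 had a mature sequence.

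Groups were compared by exact permutation over 20 assignments, and values within lists by exact sign-flip tests over 6 libraries (Python 3.11.15, numpy 2.4.6, pandas 2.3.3). A sign-flip test pools both groups and measures agreement over lists of the same genes, not the spread between genes. Overlap code was tested on simulated intervals. Members and lists were chosen with earlier results of these data known. Named genes were the 10 with the highest lowest fold enrichment among genes with a peak in every active library alone, likewise those with a peak in all 6, any gene with a peak in all inactive and under 3 active libraries, and both fixed lists. The alternatives cut lists to equal length, a common p or a stricter q cutoff, changed the overlap, the host or the counting unit, left out each library and blocked by replicate number.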

Additional observations from a re-analysis of the deposited data

How the results depend on the processing

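The depth of the libraries is unknown, the lists differ in length, and 3 libraries a group limit the permutation test to p = 0.1. The difference in overlap between groups was positive for all miRNA genes and for those in protein-coding hosts under each alternative run. For all genes it was 2.34 percentage points with a common p cutoff, 3.52 with a stricter q cutoff and 3.43 to 6.65 with 1 library left out, and for protein-coding hosts 5.20 to 8.98. With lists of equal length the difference was 0 for lncRNA hosts and 0 for genes in neither class, and with 1 library left out it was 0.294 to 3.12 and 0.510 to 2.39. The difference between miRNA genes and positions in protein-coding hosts was 1.12 to 1.71 with 1 library left out and passed the threshold where a peak within 1000 bp counted (1.92 percentage points, exact sign-flip p = 0.03125). In lncRNA hosts it turned positive with lists of equal length (0.130), a common p cutoff (0.143), a stricter q cutoff (0.118), the whole gene inside a peak (0.0752), a peak within 1000 bp (0.346) and each host counted once (0.251, chosen after seeing the data), and was −0.226 to 0.0791 with 1 library left out. The number of genes with a peak in every active library alone was 13 with lists of equal length, 19 with a common p cutoff, 53 with a peak within 1000 bp and 30 to 61 with 1 library left out. The number with a peak in all 6 libraries was 23 with a peak within 1000 bp and 8 to 13 with 1 library left out. The log2 ratio of fold enrichments was 0.16 to 0.19 with 1 library left out, where the smallest p that 5 libraries allow is 0.0625, and 0.19 in replicates 1 and 2 alone (exact sign-flip p = 0.125, chosen after seeing the data). The cause of these changes was not tested, beyond the fewer libraries.

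The labels number the replicates alike in both groups. The design text of the series speaks of matched aliquots, but nothing says that a number marks 1 lysate. Over 2568 bins of 1 Mb the correlations of same-numbered libraries were 0.0399, 0.109 and 0.0187, not all over 0.1. Active replicate 1 correlated best with inactive replicate 3 (0.0852). These values were used only to ask whether a replicate number marks a pair, and not to measure how alike the peak lists are. With the replicate number as a block the differences were 5.29 percentage points for all genes, 7.29, 2.12 and 1.73 for the 3 host classes, with exact sign-flip p-values of 0.25 for all genes, protein-coding hosts and neither class and 0.5 for lncRNA hosts (smallest possible 0.25).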
